A study of Homo sapiens with 30 samples.

Results

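Wild-type peak cluster 1 is a set of 2113 ATAC-seq regions, each 500 bp wide, out of 22974 regions that the authors sorted into 9 clusters of peaks from wild-type HUES8 cells. The members were taken by the number in the name of the deposited list, since the list carries the number 4 inside, and such a mismatch is present in all 9 lists. Every region of that list was kept, so the members make up 9.20% of all cluster regions. No measured difference between genotypes entered the choice. As far as the labels say, the wild-type samples behind the clusters are also the control side of the lists. Members and control values are therefore not independent, and the part of this in the shares below was not tested. The accessibility profile over the stages that defined the cluster is not stated in these sources, so it is called by its number only.

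ATAC-seq maps open chromatin with a transposase that cuts and tags accessible DNA, and open regions of this kind include promoters, enhancers and insulators. The HUES8 line is an established line of human embryonic stem cells. HNF6, the protein of the gene ONECUT1, is a transcription factor with a homeodomain that is active in the developing pancreas and liver. In the embryo it acts upstream of other pancreatic regulators, and it is known for its part in the making of pancreatic progenitors and their endocrine descendants. Stepwise differentiation in culture takes pluripotent cells through endoderm and a gut tube stage before pancreatic identity appears, and many regions open and close on the way.

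The 30 samples fall into 10 groups of 3. HNF6-KO (HNF6-Knockout) cells and control (wild type) cells were each assayed as undifferentiated cells (ESC), definitive endoderm (DE), at the primitive gut tube stage (GT), as endoderm of the pancreas (PE) and as pancreatic progenitors (PP). All groups come from HUES8 cells and went through the same pancreatic differentiation as far as the labels say. How the knockout was made, and whether it is 1 clone, is not stated. Nor do the labels tell if replicates were separate differentiations, and p-values then measure only the spread between these samples, which may be technical. Stage markers were not checked here, because no gene annotation of hg19, the build of the positions, was used. The depth of the libraries is unknown, as the files hold no totals.

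The cluster 1 regions were concentrated on a few chromosomes. On chromosome 19, known for its high gene density, 271 of the 966 regions of all clusters belonged to cluster 1, a share of 28.1%. The share was 17.8% on chromosome 22, 15.0% on chromosome 16, 13.4% on chromosome X (11 members), 12.4% on chromosome 17 and 12.3% on chromosome 20. It was smallest on chromosome 18 with 1.85% (11 members), followed by chromosome 4 with 3.25% and chromosome 13 with 3.42%. The plot of the cluster 1 share by chromosome shows this range around the overall 9.20%.

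**Figure D1:**
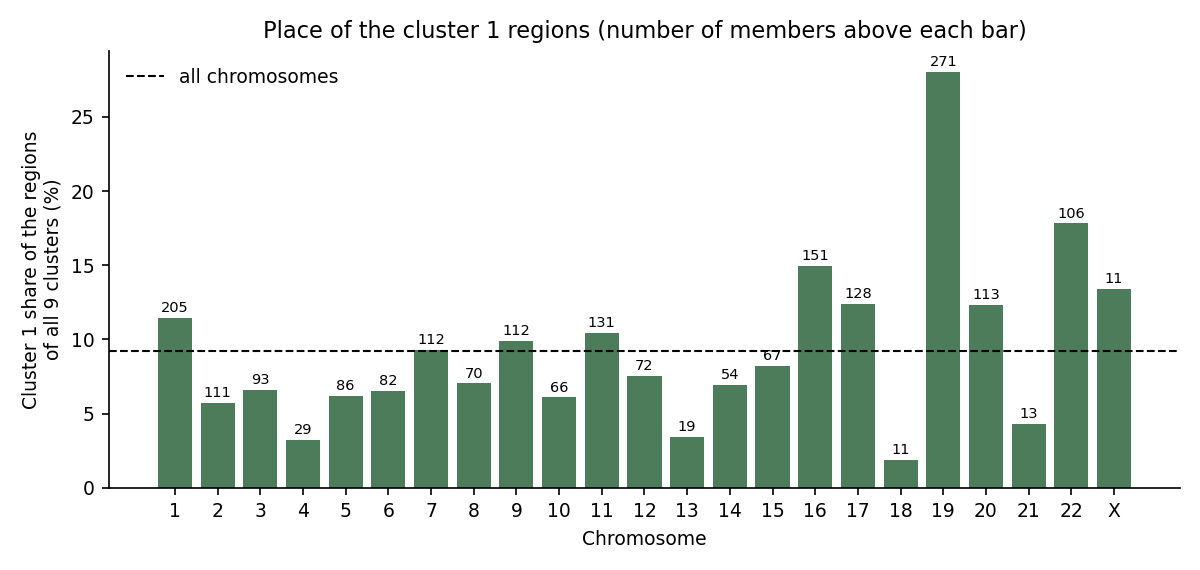
Share of the regions of all 9 clusters that belonged to cluster 1 (vertical axis, %), for each chromosome (horizontal axis), with the number of members above each bar and the share over all chromosomes as a dashed line. Chromosome 19 stands highest with 28.1% and chromosome 18 lowest with 1.85%.

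The members also lay close to one another and to other open regions. The median distance from a member to the next member on its chromosome was 168.5 kb. This spacing was smaller in cluster 7 alone (133.0 kb) and reached 1519 kb in cluster 5, which holds only 707 regions. Clusters differ in size, and fewer regions lie further apart by number alone. Of these distances between members, 13.0% were within 5 kb and 42.0% within 100 kb. Neither share was the highest, with 13.4% within 5 kb in cluster 6 and 45.9% within 100 kb in cluster 7. The nearest region of any cluster was 3.45 kb away in the median, against 13.1 kb for the regions of the other 8 clusters. For 28.8% of members that nearest region was itself in cluster 1, against 7.91% of the other regions. Another 22.1% of members had a cluster 7 region nearest and 16.2% a cluster 6 region, although these clusters hold 13.4% and 7.27% of all regions.

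The densest 1 Mb window was the part of chromosome 9 from 139 to 140 Mb (chr9:139000001-140000000), with 25 members among 76 regions. The second, at chr19:1000001-2000000, held 23 members among 52 regions. In all, 18 windows held at least 12 members, and 4 of them lay on chromosome 19 and 4 on chromosome 20. Members in such windows are neighbours and may share a list region, so they are not independent. The intervals given below for shares of members still count each member as a separate trial, and are therefore likely too narrow.

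The authors deposited 1 list per genotype and stage of differential regions, which gives the regions higher in that genotype with a -log10 p of at least 5. A member was counted as listed if 1 bp or more of it lay inside a region of that list. Of the 2113 members, 1051 (49.7%) lay in at least 1 of the 10 lists, against 38.4% of all cluster regions. The largest excess over the background was in the list of regions higher in control at ESC, followed by the list higher in HNF6-KO at DE. At ESC, the control list held 392 members, a share of 18.6% with a 95% Wilson interval of 17.0 to 20.3% that covers counting error only, and the share over all cluster regions was 5.38%. That was the highest share among the 9 clusters, the next being cluster 7 with 13.9%. In such bulk cultures, a shift in how many cells have a region open and a shift in how open it is per cell cannot be told apart.

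At the next stage the excess was in the list of the opposite genotype. At DE, the HNF6-KO list held 250 members, or 11.8% (interval 10.5 to 13.3%), where the share over all cluster regions was 5.69%. Cluster 6 stood beside cluster 1 there, also with 11.8%. The control list at DE held 55 members, or 2.60%, under the 4.99% of all cluster regions. At ESC, the HNF6-KO list held 78 members, a share of 3.69% that was close to the 3.73% of all cluster regions.

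At the later stages the members stood nearer to the background, least so in the HNF6-KO list at PE. At GT, 54 members (2.56%) were in the HNF6-KO list and 74 (3.50%) in the control list, against 1.86% and 2.49% of all cluster regions. At PE the HNF6-KO list held 151 members (7.15%, interval 6.12 to 8.32%, against 3.97%) and the control list held 106 (5.02%, against 6.44%). In that HNF6-KO list cluster 1 ranked 3 among the 9 clusters, and cluster 6 was highest with 10.9%. At PP, 221 members (10.5%) were in the HNF6-KO list and 45 (2.13%) in the control list, near the 11.1% and 2.47% of all cluster regions. The PP shares are therefore not a result about cluster 1.

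**Figure D2:**
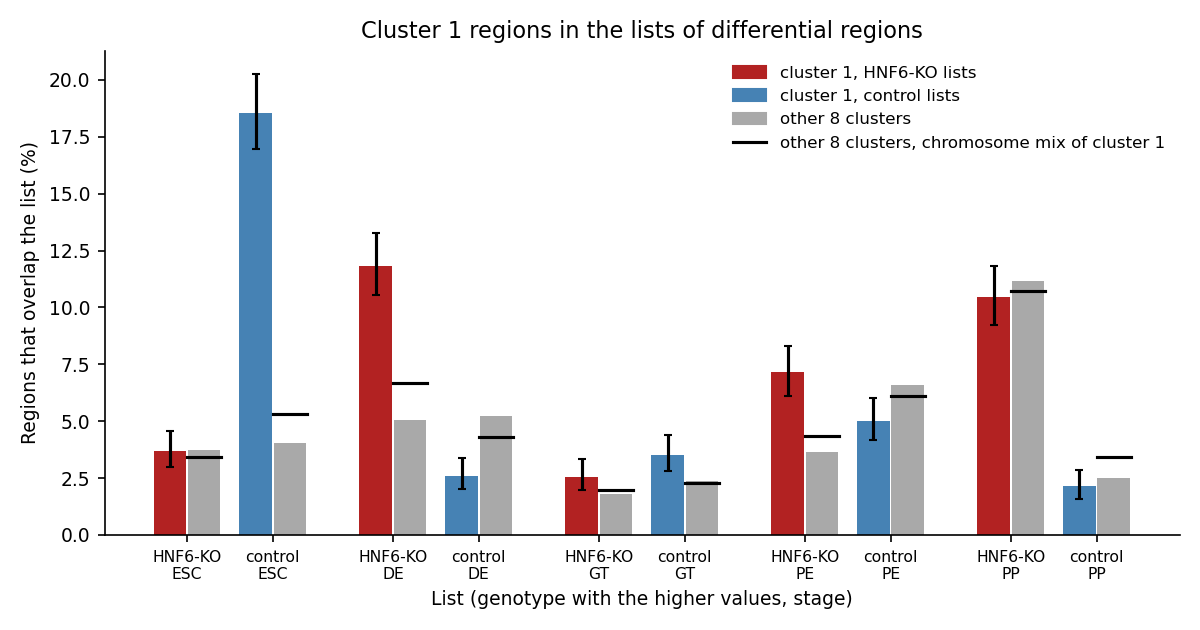
Share of regions that overlap each of the 10 lists (vertical axis, %), by list (horizontal axis). Coloured bars are cluster 1, with 95% Wilson intervals as error bars that count each member as independent and are likely too narrow. Grey bars are the other 8 clusters together, and black lines are the other clusters with their chromosomes weighted as in cluster 1. Cluster 1 stands furthest above both at ESC in the control list (18.6%) and at DE in the HNF6-KO list (11.8%), then at PE in the HNF6-KO list (7.15%).

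Because the members crowd on a few chromosomes, the other 8 clusters were also weighted to the chromosome mix of cluster 1. Their share in the control list at ESC was then 5.33%, and 4.04% unweighted. For the HNF6-KO list at DE it was 6.66% weighted and 5.07% unweighted. Both stayed well under the shares of cluster 1, while for the HNF6-KO list at PE the weighted share was 4.36%, against 7.15% of members. In the control list at PP the weighted share, 3.43%, was above the 2.13% of members.

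The ESC excess was present on each chromosome that could be compared. On all 18 chromosomes with at least 50 members, a larger share of cluster 1 regions than of the other clusters' regions lay in the control list. The members' share reached 29.8% on chromosomes 16 and 1, where the other clusters had 5.82% and 6.49%. It was lowest on chromosome 6 with 4.88%, against 1.02%. On chromosome 19, which holds the most members, the shares were 16.6% and 10.5%, the closest pair in ratio among the 18.

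In the HNF6-KO list at DE the members' share was higher on 17 of the 18 chromosomes. The exception was chromosome 10, with 3.03% of members and 3.44% of other regions. Chromosome 22 stood apart in both sets, with 33.0% of members and 23.7% of other regions in that list. The count was 14 of 18 chromosomes for the HNF6-KO list at PE, 11 for the HNF6-KO list at ESC and for both GT lists, 8 for the control list at PE and the HNF6-KO list at PP, and 4 for the control lists at DE and PP. The plot of listed shares by chromosome shows the distance of each chromosome from the line of equality.

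**Figure D3:**
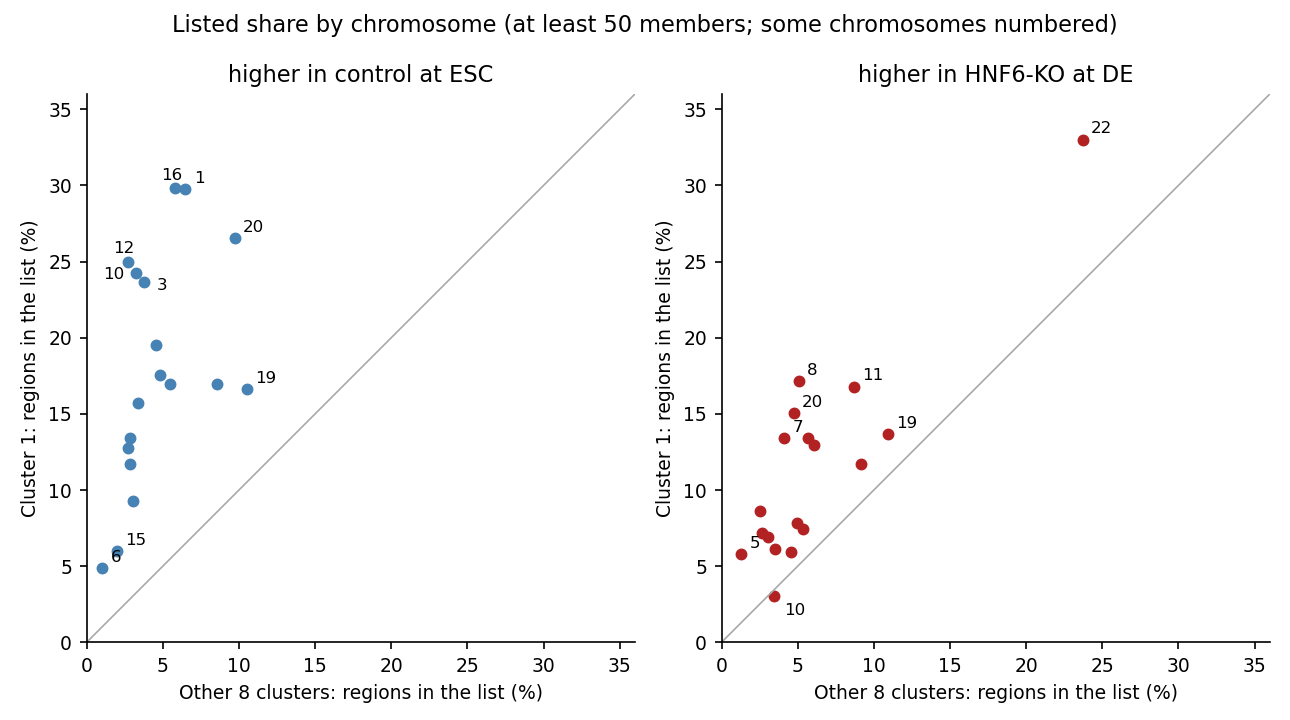
Share of cluster 1 regions in a list (vertical axis, %) against the share of the other 8 clusters' regions (horizontal axis, %), 1 point per chromosome with at least 50 members, for the control list at ESC and the HNF6-KO list at DE. All 18 points lie above the line of equality at ESC and 17 of 18 at DE, with chromosome 10 just under it and chromosome 22 at the top right.

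Among members in 1 list of a stage only, the direction departed most from that of the other clusters at ESC and DE. At ESC 16.6% of them were higher in HNF6-KO, against 48.0% of the other clusters' listed regions, and at DE 82.2% were, against 49.2%. At PE, 150 members were higher in HNF6-KO and 105 in control, so 58.8% were higher in HNF6-KO, against 35.6% in the other clusters. With list regions of at least 1.5-fold alone the figure for members was 48.3%, and it ran from 50 to 61.1% when 1 of the 6 values was left out, so the direction at PE depends on small ratios and on single values. At GT, 42.2% of listed members were higher in HNF6-KO, close to the 42.8% of the other clusters, and at PP 83.1% were, against 81.8%. No test of these differences between clusters was run.

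Beside the whole lists, the differences at cluster 1 regions were small in size and lay in wide regions with high values. Each list region carries 3 values per genotype, and the ratios given are log2 of the HNF6-KO mean over the control mean with 1 added to each. The 373 control-list regions at members at ESC had a median log2 ratio of -0.46, against -0.75 over the whole list. Only 1 of the 373 reached a 2-fold ratio, or 0.268%, against 28.1% of the whole list and 6.49% at the other clusters' regions. In the HNF6-KO list at DE the medians were 0.53 at members and 0.82 over the list. There, 4 of 235 regions at members reached 2-fold (1.70%), against 33.9% of the list and 4.48% at the other clusters' regions.

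The same held in each list. Over the 5 HNF6-KO lists the medians at members ran from 0.46 to 0.66, against 0.61 to 1.08 for whole lists. Over the 5 control lists they ran from -0.65 to -0.46 at members, against -1.09 to -0.75. By count, the list regions at members in the HNF6-KO list at PP included the most of at least 2-fold, 16 of 212. That is 7.55%, against 56.8% of the whole list. By share, the control lists at PP (5 of 43, 11.6%, against 38.7%) and DE (5 of 52, 9.62%, against 57.4%) stood higher. The median was also closer to 0 at members than at the other clusters' regions in all 10 lists, by the least at PE in the HNF6-KO list (0.46 and 0.49).

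List regions at members were wider and held higher values than the whole lists. The median width was 1900 bp at members in the HNF6-KO list at DE, against 1000 bp for the list, and 1300 bp in the control list at ESC, against 900 bp. The median of the mean value was 798 at members in that ESC list, against 255 over the list. Per kb of list region the medians were 607 and 234, so the values were also higher for the same width. Much of this was shared by the other clusters' regions, with median widths of 1600 bp at DE and 1200 bp at ESC in these lists. Their value per kb in that ESC list was 345. It was above that of members in the HNF6-KO list at PE (538 and 488) and in the control lists at PE (464 and 460) and PP (462 and 394). In the remaining lists it was below that of members. The 6 values of a region carry no unit in the files, and whether they were scaled between libraries is not stated.

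At ESC, the 3 control values of a region did not behave alike at these members. Each value was divided by the mean of the 6 values of its region. In the control list at ESC the medians at members were 0.88, 0.87 and 0.77 for HNF6-KO and 1.26, 1.19 and 0.99 for control. The last control value, in the order of the file, thus sat at the mean of the 6 rather than with the other 2. It was the lowest control value in 285 of the 373 list regions, and below the highest HNF6-KO value in 161 of them, or 43.2%.

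That share was highest in cluster 1. It was 35.5% in cluster 6 and 25.0% in cluster 7, and 14.5% for the 7436 list regions that touch no cluster region. The 3 HNF6-KO values and the 3 control values did not overlap in 52.5% of the control-list regions at members at ESC, against 73.9% of the whole list. Without the third control value, which can only raise the share, they did not overlap in 92.0% at members and in 89.1% of the whole list. The members in regions without overlap numbered 204 with all 6 values and 362 without that value. Which of the 3 control samples it belongs to is not given in the file, and its part in the ESC excess of cluster 1 was not tested beyond these counts.

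Such a gap was absent at members in the HNF6-KO list of that stage. In the HNF6-KO list at ESC the medians at members were 1.14, 1.20 and 1.16 for HNF6-KO and 0.83, 0.83 and 0.85 for control, 3 like values in each genotype. In the HNF6-KO list at DE they were 1.26, 1.10 and 1.17 for HNF6-KO and 0.85, 0.82 and 0.80 for control. There, 72.8% of list regions at members did not overlap between genotypes, against 76.1% of the list. The plot of the relative values shows the 10 lists side by side.

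**Figure D4:**
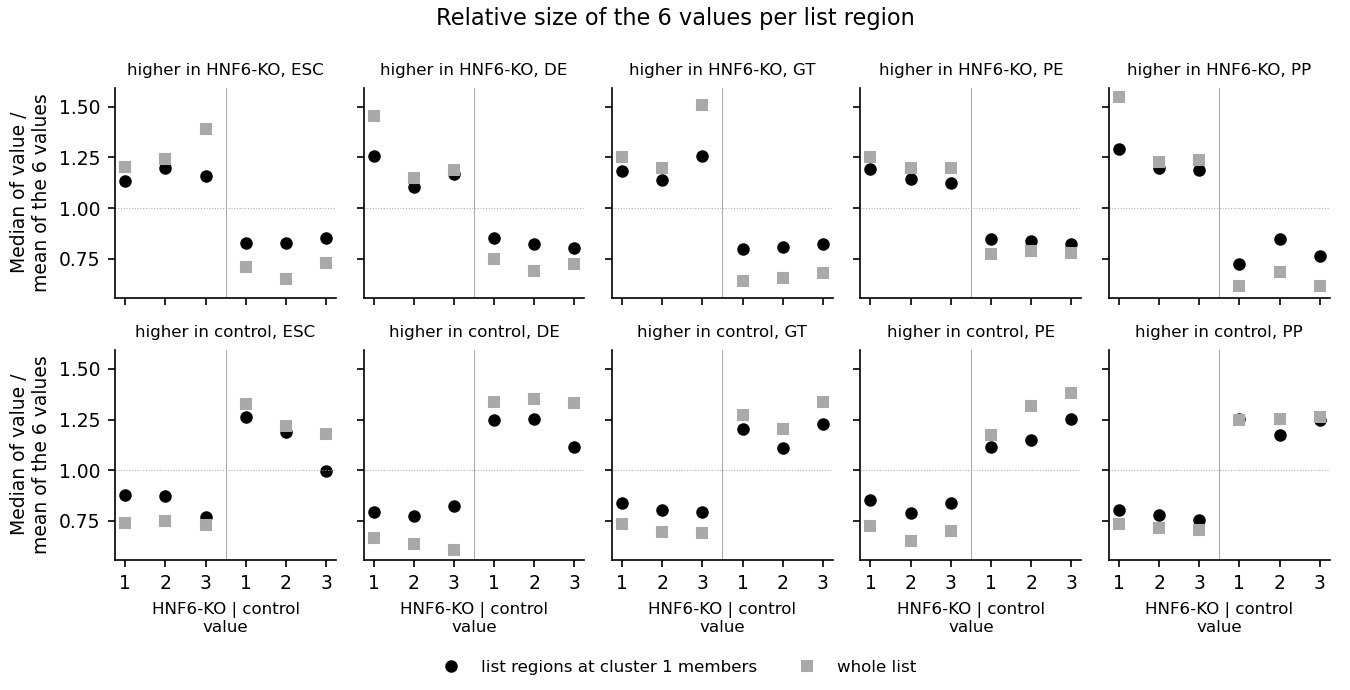
Median over list regions of each value divided by the mean of the 6 values of its region (vertical axis, no unit), for the 3 HNF6-KO values (left in each panel) and the 3 control values (right), in file order. Black circles are list regions at cluster 1 members and grey squares the whole list, and most black circles lie nearer to 1, with the third control value of the control list at ESC at 0.99.

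Single members show these sizes in each sample. With 3 values against 3, an exact two-sided permutation test cannot give a p under 0.1, which is the p of every region described here whose groups do not overlap, so single members were not called by it. Values are the authors' and are given in file order, with no unit. A list region is often wider than the member, and the value then belongs to the whole list region. It can also cover only a part of the member, so that much of the value comes from DNA beside it.

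Of the members higher in control at ESC, chr12:57628738-57629237 carried the highest authors' -log10 p, 38.4. Its 4100 bp list region had values of 1655, 1475 and 1440 in HNF6-KO and 3193, 2210 and 1748 in control, means of 1523 ± 115 and 2384 ± 738 (SD, n = 3 each). The control values were far apart but all above those of HNF6-KO (log2 ratio -0.65). At chr20:30430415-30430914 values were 1751, 2127 and 1849 in HNF6-KO and 2985, 3010 and 2131 in control. The lowest control value there only just cleared the highest of HNF6-KO (log2 ratio -0.50). This member lies in a window of chromosome 20 where 9 of 13 members were in this list. The window's regions of other clusters were not counted, so 9 of 13 may belong to the place and not to cluster 1. Over chromosome 20, 26.5% of members and 9.71% of the other clusters' regions were in this list. The largest ratio among members with separate groups was at chr10:11724901-11725400, with 49, 54 and 66 in HNF6-KO and 105, 112 and 169 in control (log2 ratio -1.18), a low-valued region beside the others.

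Of the members higher in HNF6-KO at ESC, a pair shared the list region with the highest -log10 p, chr3:54662977-54663476 and chr3:54664130-54664629. That region had 2082, 1852 and 1637 in HNF6-KO and 1168, 1093 and 1466 in control, with no overlap (log2 ratio 0.58). The next, chr9:139559545-139560044, is in the densest window of the cluster and had 821, 1160 and 1052 in HNF6-KO and 597, 529 and 614 in control (log2 ratio 0.80). The largest ratio among members with separate groups and a higher mean of at least 50 was 0.85 at chr18:48944211-48944710, on the chromosome with the smallest cluster 1 share, with 815, 668 and 974 in HNF6-KO and 487, 452 and 424 in control. These groups, too, did not overlap.

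At DE, the member with the highest -log10 p in the HNF6-KO list, chr15:77320408-77320907, had 1908, 2135 and 2399 in HNF6-KO and 1418, 1677 and 1483 in control, over a list region of 5900 bp (log2 ratio 0.49). The groups were separate. At the next, chr7:150773840-150774339, with 1514, 926 and 1442 in HNF6-KO and 706, 794 and 990 in control, they overlapped through 1 low HNF6-KO value (log2 ratio 0.64, exact two-sided permutation p = 0.2). The largest ratio among separate groups was 1.35 at chr3:46586431-46586930, with 179, 133 and 132 in HNF6-KO and 42, 73 and 57 in control.

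Fewer members were higher in control at DE. The pair chr15:65099906-65100405 and chr15:65100887-65101386 shared a list region with 585, 593 and 621 in HNF6-KO and 958, 961 and 900 in control. Both groups were tight there, at 600 ± 19 and 940 ± 34 (SD, n = 3 each, log2 ratio -0.65). The member chr7:20817514-20818013 had 799, 706 and 785 in HNF6-KO and 1052, 1043 and 1284 in control (log2 ratio -0.56), and chr2:230135758-230136257 had the largest ratio among members with separate groups and a higher mean of at least 50, -1.19. The groups did not overlap at either.

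At GT, the HNF6-KO list was led by chr17:47091655-47092154, with 979, 822 and 1002 in HNF6-KO and 564, 535 and 640 in control (log2 ratio 0.69) and no overlap. The pair chr16:2029021-2029520 and chr16:2029546-2030045 shared a list region of 5000 bp whose groups overlapped (log2 ratio 0.40, exact two-sided permutation p = 0.2). The largest ratio was 1.02 at chr16:19873267-19873766. In the control list, chr20:61886080-61886579 had 459, 231 and 321 in HNF6-KO and 598, 543 and 708 in control (log2 ratio -0.87). The groups were tighter at chr5:43603276-43603775, with 399, 413 and 416 in HNF6-KO and 698, 638 and 653 in control (log2 ratio -0.69). At chr3:32944352-32944851 the ratio was largest, -0.98, with 99, 100 and 98 in HNF6-KO and 227, 187 and 176 in control. None of these 3 control-list members overlapped between genotypes.

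At PE, a member higher in control carried a -log10 p of 48.9, the highest of the members in any list. This was chr8:102466344-102466843, with 425, 462 and 449 in HNF6-KO and 888, 1108 and 1089 in control, means of 445 ± 19 and 1028 ± 122 (SD, n = 3 each, log2 ratio -1.21). Every control value was far above every HNF6-KO value. The member chr11:61722900-61723399 had 756, 726 and 693 in HNF6-KO and 1102, 1302 and 1087 in control (log2 ratio -0.68), again without overlap. A narrow list region of 300 bp at chr3:193493201-193493700 held the largest ratio, -1.79, from low values of 38, 12 and 12 in HNF6-KO and 60, 75 and 87 in control. That list region, chr3:193493601-193493900, lies mostly outside the member.

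In the HNF6-KO list at PE, chr19:7933864-7934363 had 1396, 1139 and 1298 in HNF6-KO and 719, 977 and 689 in control (log2 ratio 0.68). The largest ratio was 1.11 at chr5:176024084-176024583, with 261, 355 and 470 in HNF6-KO and 224, 150 and 126 in control. The groups did not overlap at these members, although the values within a genotype were spread wide at the second. Chromosome 9 held 20 of the 151 members of this list, 9 of them in the window chr9:139000001-140000000. No other chromosome with at least 50 members reached its share of 17.9%, where the other clusters had 7.14%.

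At PP, the ratios of the leading HNF6-KO members were the largest among the leading members of that genotype. The member chr10:102102027-102102526 had 451, 387 and 423 in HNF6-KO and 184, 205 and 198 in control, means of 420 ± 32 and 196 ± 11 (SD, n = 3 each, log2 ratio 1.10). The largest ratio, 1.91 at chr17:70147054-70147553, came from low values, 85, 53 and 62 in HNF6-KO and 26, 24 and 1 in control. Its list region, chr17:70146801-70147100, lies mostly outside the member. In the control list chr7:51394650-51395149 had both the highest -log10 p and the largest ratio, -1.31, with 131, 119 and 80 in HNF6-KO and 210, 306 and 306 in control. At chr1:150254588-150255087 values were 444, 408 and 368 in HNF6-KO and 522, 872 and 578 in control (log2 ratio -0.69). None of these overlapped between genotypes.

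Most listed members were listed at 1 stage only. Of the 1051, 748 were listed at 1 stage, 239 at 2, 58 at 3 and 6 at 4. Those of at least 2 stages numbered 303, or 14.3% of members, against 8.37% of all cluster regions. The most frequent single entries were the control list at ESC alone with 235 members, the HNF6-KO list at DE alone with 135 and the HNF6-KO list at PP alone with 117. The most frequent combination was the control list at ESC with the HNF6-KO list at DE, without any other list, at 41 members.

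The 59 members in both of those lists lay on 16 chromosomes, with control higher at ESC and HNF6-KO higher at DE. They make up 15.1% of the 392 members in the ESC list and 23.6% of the 250 in the DE list, where 11.8% and 18.6% of all members are in these lists. In the other clusters the shared regions were 14.2% of those in the ESC list, against 5.07% of all their regions in the DE list. The excess of this pair is therefore not particular to the members, and the gap was wider in the other clusters. The lists of different stages rest on different libraries, and the list region at a member differs in position between ESC and DE. The median log2 ratio of the 59 was -0.45 at ESC and 0.53 at DE.

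A chromosome 19 member and a chromosome 22 member, whose smaller ratio of the 2 stages was the largest among the 59, show it per sample. At chr19:1146269-1146768 the ESC values were 212, 250 and 159 in HNF6-KO and 404, 396 and 274 in control, and the DE values were 606, 677 and 549 in HNF6-KO and 433, 259 and 360 in control. The genotypes were separate at both stages and in opposite order (log2 ratios -0.79 and 0.80). At chr22:46026962-46027461 the ESC values were 150, 160 and 109 in HNF6-KO and 241, 289 and 195 in control, and the DE values were 206, 217 and 237 in HNF6-KO and 119, 141 and 92 in control. The order was again reversed without overlap at either stage (log2 ratios -0.79 and 0.90). A further chromosome 22 member, chr22:39544709-39545208, had this pattern at ESC and DE and was also higher in HNF6-KO at GT, with 558, 820 and 711 in HNF6-KO and 460, 418 and 456 in control.

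Other pairs of lists shared fewer members. The control list at ESC and the HNF6-KO list at PP shared 51, or 13.0% of the ESC members, where 10.5% of all members are in the PP list. The HNF6-KO lists at DE and PE shared 31 (12.4% of the DE members, against 7.15% of all), and those at PE and PP shared 25 (16.6% of the PE members, against 10.5%). In the other clusters the same pairs had an excess too. There, 14.8% of the regions in the control list at ESC were in the HNF6-KO list at PP, against 11.2% of all. For the HNF6-KO lists it was 7.18% at DE and PE, against 3.64%, and 23.4% at PE and PP, against 11.2%. The excess in these pairs is therefore not particular to the members. The control lists at DE and PE shared 11 of the 55 DE members, or 20%, where 5.02% of all members are in the PE list. In the other clusters that last pair was 3.21% of the DE regions, against 6.59% in the PE list, so the order of the shares was the opposite there. With 11 members on 9 chromosomes the counts are small.

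The 6 members listed at 4 stages were on chromosomes 5, 8, 9, 15, 17 and 19. Only the one on chromosome 8, chr8:143820615-143821114, was higher in the same genotype throughout, in HNF6-KO. Its values were 592, 347 and 391 in HNF6-KO and 260, 254 and 255 in control at ESC, and 666, 665 and 812 in HNF6-KO and 498, 349 and 373 in control at DE. At PE they were 824, 871 and 1027 in HNF6-KO and 458, 507 and 501 in control, and at PP 566, 539 and 533 in HNF6-KO and 266, 240 and 240 in control. The genotypes were separate at each of these stages, with log2 ratios of 0.79, 0.81, 0.89 and 1.13, and the member was not listed at GT. It had the highest -log10 p of the members in the HNF6-KO lists at PE and PP, 25.8 and 22.8.

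The other 5 changed direction. In all of them control was higher at ESC and HNF6-KO at PP, but the stages between differed. The member chr9:130912838-130913337 was higher in HNF6-KO at DE and PE as well, with log2 ratios of -0.34, 0.45, 0.42 and 0.76 at ESC, DE, PE and PP. The member chr17:77899008-77899507 was higher in HNF6-KO at GT and PE (log2 ratios of -0.47, 0.66, 0.54 and 0.75 at ESC, GT, PE and PP). At chr19:58550003-58550502 the direction alternated, with ratios of -0.45, 0.55, -0.67 and 0.61 at ESC, DE, GT and PP, and the genotypes were separate at all of these. The member chr5:177543107-177543606 had -0.42, -0.64, 0.54 and 0.58 at ESC, GT, PE and PP. At chr15:31598673-31599172 the values were lower in HNF6-KO at ESC, GT and PE (-0.43, -0.76 and -0.58) and higher at PP (0.79). The PP list region, chr15:31599151-31600650, reaches only the end of this member, so its values come mostly from DNA beside it. In the other members, too, the list regions differed in position between stages.

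Separation between the genotypes was not complete in these members. The groups overlapped at ESC and PP on chromosome 15, at ESC, PE and PP on chromosome 17, at PP on chromosome 5 and at PE on chromosome 9, with exact two-sided permutation p values between 0.2 and 0.4. On chromosome 17 the ESC values were 558, 613 and 575 in HNF6-KO and 902, 1002 and 517 in control, where the third control value fell below all 3 of HNF6-KO. On chromosome 15 the PP values were 486, 217 and 241 in HNF6-KO and 183, 253 and 109 in control, so that 1 high HNF6-KO value carried the ratio. The plot of the 6 members shows each value by stage.

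**Figure D5:**
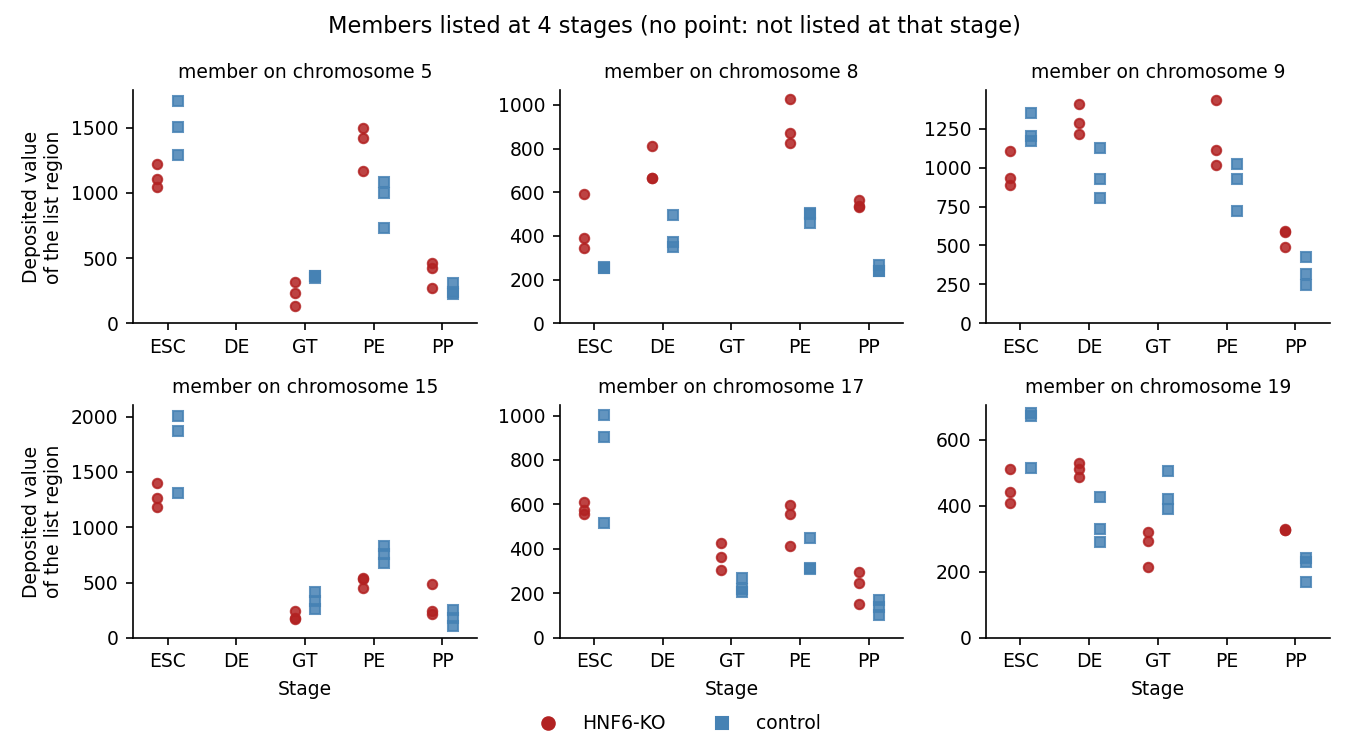
Deposited values (vertical axis, no unit, a separate scale in each panel) of the list regions at the 6 members listed at 4 stages, by stage (horizontal axis), with 3 HNF6-KO values as red circles and 3 control values as blue squares. The chromosome 8 member is higher in HNF6-KO at each stage shown, from 347 to 592 against 254 to 260 at ESC, and the other 5 are higher in control at ESC.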

How the data were processed

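ATAC-seq libraries of HUES8 cells of both genotypes at 5 stages stand behind the deposited lists, which have no header. The hg19 build, Bowtie2 and MACS2 are named, without versions, per the submitters' processing notes. Not given in the sources used here are the differential caller, read shifting for the transposase and any scaling. The deposited cluster lists give positions. Each differential list gives a log2 ratio by the authors, 3 and 3 whole numbers and a -log10 p in 1 cell. No unit is named for the deposited whole numbers, and they were not treated as counts. The set higher in every region of the HNF6-KO lists was read as HNF6-KO, a reading that rests on the list names. Sequencing depth is unknown, and so is its precision.

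Overlaps of at least 1 bp were counted in Python 3.11.15 with numpy 2.4.6, pandas 2.3.3 and scipy 1.17.1, and figures were drawn with matplotlib 3.10.9. The overlap code was tested on planted lists and by a direct search. Log2 ratios were recomputed as HNF6-KO over control with 1 added to each mean. Shares carry 95% Wilson intervals, which count each member as independent although neighbours are not. No set test was run, since neighbouring regions are not replicates. Regions were named by rule: for each list the members in the 2 list regions with the highest -log10 p, ties kept, which names an extra member where 2 members share a list region, and the member with the largest log2 ratio among those with separate groups and a higher mean of at least 50, plus members listed at 4 stages. The examples in both the control list at ESC and the HNF6-KO list at DE were picked outside that rule, after their values were seen. Members, lists and rules were chosen with earlier results of these data known. Weighting by chromosome, leaving out the third control value and the use of list regions that touch 1 cluster region only were added after seeing the data. Gene, start site, base composition and motif results need a genome of the hg19 build and were not run.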

Additional observations from a re-analysis of the deposited data

Results flagged for a closer look

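In 24 members the genotype difference had opposite directions in the ESC and DE list regions that touch them. These members lay in the control list at ESC and in the HNF6-KO list at DE. At both stages their 3 HNF6-KO and 3 control values did not overlap. The ESC and DE list regions of a member differ in position, so the values are not from exactly the same stretch of DNA. At chr1:38461463-38461962, 1 of the 24, they were chr1:38460651-38461850 at ESC and chr1:38461751-38468350 at DE. The 24 members are part of the 59 members in both lists, of which 29 had separate groups at ESC and 44 at DE. Separate groups were found in 52.5% of all list regions at members in the ESC list and in 72.8% of those in the DE list, and in 73.9% and 76.1% of the whole lists, so the 59 members do not stand out in either count. The difference between the stages was flagged because all samples of a genotype moved one way at ESC and the other way at DE, and it was not tested. The lower number at ESC stands beside the low values of the third control value there, whose part in it was not tested.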

How the results depend on the processing

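Asking for an overlap of at least 250 bp, or for the region's centre inside the list region, gave 12.3% of listed members higher in HNF6-KO at ESC (16.6% as reported). List regions with a -log10 p of at least 10 left 12 members in the HNF6-KO list and 96 in the control list at ESC, 36 and 8 at DE, 1 and 4 at GT, 36 and 21 at PE, and 48 and 4 at PP. Of the members they list, 11.1% were higher in HNF6-KO at ESC, 20% at GT (42.2% as reported) and 92.3% at PP (83.1% as reported), and 16 members were listed at 2 or more stages. List regions without overlap between genotypes left 204 members in the control list at ESC and 34 in that at DE, and 22.1% higher in HNF6-KO at ESC. With 1 member per 100 kb, 1469 members remained, of which 255 were in the control list at ESC, 40 in the control list at GT and 92 in the HNF6-KO list at PE. List regions that touch 1 cluster region only held 46 members in the control list at GT, and 88 in the HNF6-KO list and 67 in the control list at PE. List regions no wider than 1 kb had median log2 ratios at members of 0.57, 0.71 and 0.90 in the HNF6-KO lists at ESC, DE and GT, and of -0.96 and -0.77 in the control lists at GT and PE. Stricter settings hold fewer regions by construction. The counts under these settings were made for members only. Without the shares over all cluster regions under the same settings, they do not show whether the excess of cluster 1 holds. The cause of the other shifts was not tested.

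With list regions of at least 1.5-fold, 51.9% of listed members were higher in HNF6-KO at GT and 48.3% at PE. Leaving out each of the 6 values in turn gave 42.6 to 53.6% at GT, which crosses the even split. At PE it gave 50 to 61.1%, at or above the even split, where all 6 values together gave a share under it. In the control list at ESC 53 members had such a ratio, and 37 to 153 with a value left out: 153 without the third control value, 109 without the first HNF6-KO value and 92 without the second. For the HNF6-KO list at PE the number was 28, and 44 without the third control value. These counts, too, were made for members only, with no share over all cluster regions beside them. For the 52 named list regions, all 416 alternatives kept the direction and size of the log2 ratio within the spread between samples. Most of these alternatives left out a value, which moves a group mean by less than the spread of that group. Where the genotypes do not overlap, leaving out a value cannot reverse the direction. This outcome was therefore largely fixed in advance, and no conclusion on the stability of the ratios is drawn from it.

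No paired analysis was possible because the values carry no replicate number. Alternatives on genes, start sites and motifs were not run. Depth cannot be read from these files, so how far it limits the lists is unknown, and regions outside the lists have no values here.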
